A study of Mus musculus with 16 samples.

Results

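The replication-dependent histone genes are the short gene copies that encode the linker histone H1 and the core histones H2A, H2B, H3 and H4. They were taken as every entry whose symbol begins with Hist1h, Hist2h, Hist3h or Hist4h, with 1 pseudogene symbol left out, which gave 69 genes of the 53379 gene IDs in the files. By class they were 6 H1, 20 H2A, 18 H2B, 12 H3 and 13 H4 genes. By cluster, 56 lay in Hist1 on chromosome 13, 10 in Hist2 on chromosome 3, 2 in Hist3 on chromosome 11 and 1 in Hist4 on chromosome 6. The rule used symbols alone and no measured value.

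The tissue was the dorsal root ganglion, which holds the cell bodies of sensory neurons, from naive mice 8 to 12 weeks old, profiled in 16 libraries. All mice, female and male, carried Nav1.8-Cre, which acts where the Scn10a promoter is active, and the Rosa26fsTRAP allele on C57BL/6J. In such mice an EGFP-L10a ribosomal protein is made in Nav1.8-expressing neurons, so the pulldown draws on the translated RNA of those neurons. Every replicate combined the ganglia of 3 mice of the same sex, and there were 4 such pools of females and 4 of males. Each pool gave a library of RNA from the anti-GFP pulldown of tagged ribosomes (IP) and a library of total RNA from the whole ganglion (IN), so that the groups were female IP, female IN, male IP and male IN with 4 libraries each. No Cre-negative group is among the 16 libraries, and the mice of a pool cannot be told apart.

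In dividing cells these genes are switched on together at the start of S phase, when new DNA has to be packed into nucleosomes. Their mRNAs as a rule have no poly(A) tail and end instead just after a short stem-loop, which the stem-loop binding protein SLBP holds for processing, export, translation and decay. In cells that have left the cycle, such as neurons, the histone supply is known to rest largely on variant histones from other genes, and some of the Hist genes are known to give longer, polyadenylated transcripts there. The libraries were made from ribosomal RNA-depleted total RNA, which does not select for poly(A) tails.

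The stem-loop was searched in the annotated transcripts as 6-base arms that pair exactly around a 4-base loop of T, C or A. The search required GG at the start, CC at the end and at least 2 T in the loop. A stem-loop of this form was found in 46 of the 69 genes. The sequences below show it for genes whose values the results turn on, with the paired arms in capitals (GRCm38 coordinates, strand of the gene).
Hist1h1c (chr13:23739507-23739532, +): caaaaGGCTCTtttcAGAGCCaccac
Hist1h1e (chr13:23621777-23621802, -): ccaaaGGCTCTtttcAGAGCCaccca
Hist2h2aa2 (chr3:96239779-96239804, -): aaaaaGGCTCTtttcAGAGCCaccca
Hist3h2ba (chr11:58949344-58949369, +): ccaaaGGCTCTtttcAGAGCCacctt
Hist1h3e (chr13:23561898-23561923, -): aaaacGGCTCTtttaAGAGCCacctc
Hist1h4h (chr13:23531453-23531478, +): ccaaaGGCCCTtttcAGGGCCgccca
Hist1h4d (chr13:23581945-23581970, +): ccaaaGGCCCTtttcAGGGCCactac
Hist1h4b (chr13:23757361-23757386, +): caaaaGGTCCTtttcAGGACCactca
The left arm, of which the search fixed the leading GG, read GGCTCT in all 34 stem-loops found in H1, H2A, H2B and H3 genes. It read GGCCCT in 10 and GGTCCT in 2 of the 12 stem-loops found in H4 genes, so no H4 stem-loop had the arm of the other classes. In 23 of the 46 genes at most 100 bases of annotated transcript followed the stem-loop, and in 23 genes more than 100 bases followed it. The other 23 genes had no stem-loop of this form in their annotated transcript, which for some of them ends with the coding sequence.

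The genes of a class are close copies, and this limits what a value per gene means. All 13 H4 genes encode 1 and the same protein from 12 different coding sequences. The 12 H3 genes encode 3 proteins, shared by 7, by 4 and by 1 of them. The 18 H2A genes with an annotated coding sequence encode 9 proteins, 9 of those genes sharing 1 of them, and the 18 H2B genes encode 12. When annotated transcripts were cut into overlapping 50-base words, 16 genes shared at least 80% of their words with another member, and only 17 shared under 20%. Reads from shared words cannot be assigned to 1 copy, so values of near-identical genes are uncertain singly and are also given as sums.

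The files give TPM, read abundance corrected for annotated length and set to a fixed total per library, and keep no read counts, so sequencing depth is unknown. The 69 genes together held 811 to 1339 deposited TPM in IP libraries and 136 to 231 in IN libraries. Most tested genes were likewise higher in IP on the deposited scale, by a median of 1.84 on log2(TPM + 1), which holds down changes at low TPM. TPM were therefore divided by a factor per library, the median ratio over tested genes (1.65 to 2.69 in IP and 0.375 to 0.532 in IN), and all scaled TPM below are relative to the typical tested gene. Scn10a, the gene of Nav1.8, averaged 381 ± 46.8 scaled TPM in IP libraries and 125 ± 12.4 scaled TPM in IN libraries (SD, n = 8 each), a log2 change of 1.60. Markers of other cells were lower in IP: 4 of 4 satellite glia, 4 of 4 Schwann cell, 3 of 3 tested macrophage, 3 of 3 endothelial and 2 of 2 erythroid markers. All 6 nociceptor markers were higher. None of the markers was at 0 in all IP libraries. Female pool 2 kept the most of the other cells' markers in its IP library, with a summed Schwann cell marker level of 395 scaled TPM, where the other IP libraries had 106 to 299.6 and the IN libraries 1313 to 2049. The part of these cells in the histone values was not tested, and fewer cells of a type and less RNA per cell cannot be told apart in such bulk libraries.

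In IP against IN over all pools, the H4 genes were higher in IP almost as a whole, and the H2A, H2B and H3 genes were split. The linker gene Hist1h1b was lower by the most, and Hist1h1a and Hist2h2be came next. A gene was tested where its mean TPM was at least 1 in IP or in IN, which left 66 of the 69 genes, and log2(scaled TPM + 1) was fitted with limma with the pool as a block. At an adjusted p under 0.05, 27 of the 66 were higher and 17 lower in IP, 44 in all, while 79.4% of all 16099 tested genes passed in either direction, 40.5% higher and 38.9% lower. The share of histone genes called was 66.7%, with 40.9% higher and 25.8% lower, so the share called higher was near that of all genes. Relative to the median gene, 22 of the 27 higher genes stayed above it with no scaling and 26 with quantile normalization, and 16 and 14 of the 17 lower genes stayed below it. With no scaling, here and below, the 1 added before the log holds down changes at low TPM. That check therefore partly reflects a gene's level, for higher and lower genes alike. The median log2 change of the 66 genes was 0.08, against 0.02 for all tested genes. The filter matters here: 46 genes passed it on their IN mean, of which 22 were higher and 14 lower, and 20 passed it only on their IP mean, of which 5 were higher and 3 lower. The untested genes were Hist1h2aa, listed at 0 in every library, and Hist1h1t, both known as testis histone genes, and Hist1h2ac.

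**Figure D1:**
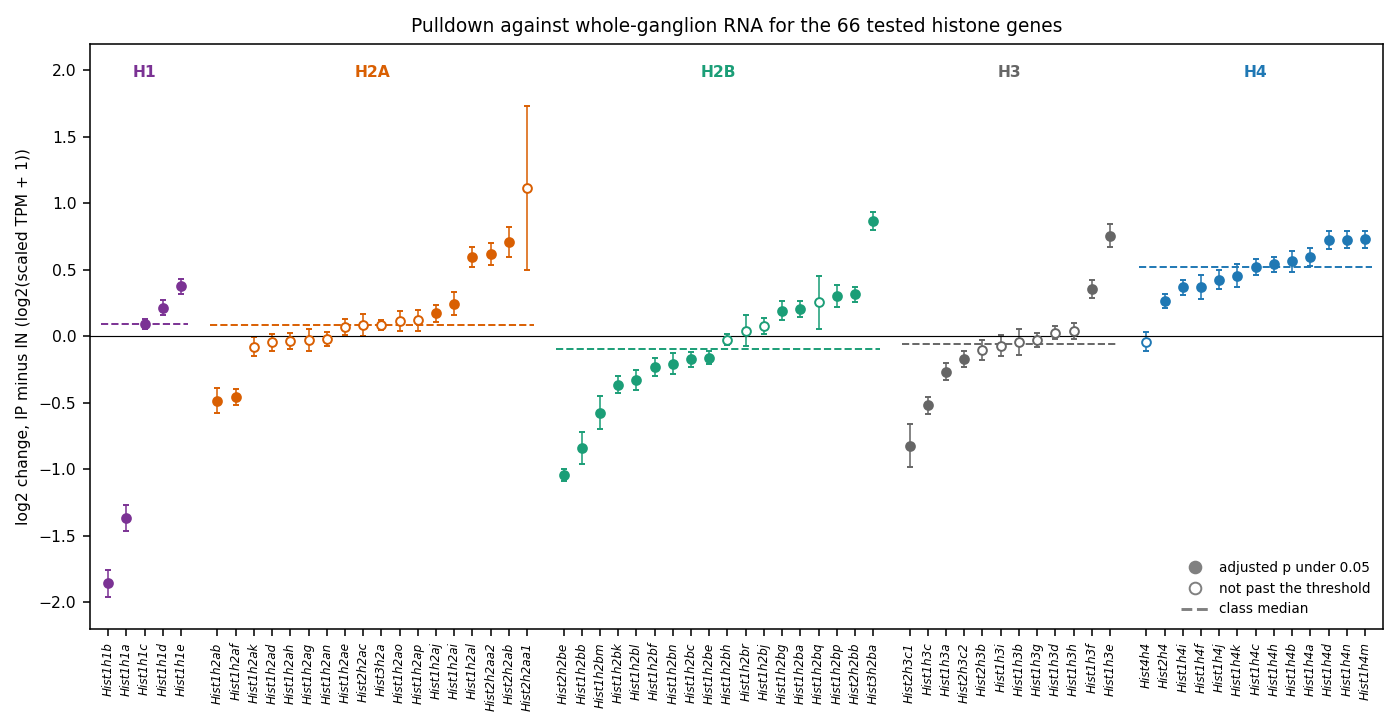
The plot shows the log2 change (IP minus IN, on log2(scaled TPM + 1)) of each tested histone gene with its standard error, grouped by class and ordered within it, with filled points for adjusted p under 0.05 and a dashed line at the class median. All H4 genes but Hist4h4 lie above 0, while H2B genes spread from -1.04 to 0.87 and H3 genes from -0.82 to 0.76.

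The H1 genes encode linker histones, which bind the nucleosome where DNA enters and leaves it. Hist1h1c (H1.2), at the highest level of all 69 genes, ranged from 41.7 to 48.1 scaled TPM in IP (median 43.7) and from 39.4 to 44.2 in IN (median 41.3). The groups overlapped, and the log2 change was 0.09 ± 0.04 (SE), with an adjusted p of 0.042 in limma. That call was lost when female pool 1, 3 or 4 or male pool 1, 3 or 4 was left out, with log2 changes of 0.076 to 0.099, and also with no intensity trend in the fit (adjusted p 0.054, limma), and the direction turned under quantile normalization (-0.16) and under a filter at 5 TPM (-0.027). Hist1h1e (H1.4) ranged from 18.4 to 21.5 scaled TPM in IP and from 13.1 to 17.0 in IN, with no overlap. Its log2 change was 0.38 ± 0.05 (adjusted p 9.3e-05, limma) and it was higher in IP in 8 of 8 pools. Its entry overlaps that of Hist1h2be, and 32.0% of its words are shared with other members. Hist1h1d (H1.3) was higher by 0.21 ± 0.06, but it passed the filter only on its IP mean. It lay below the median gene with no scaling, where changes at low TPM are held down. Its annotated transcript, at 7425 bases, is the longest of the H1 genes.

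The linker genes Hist1h1a (H1.1) and Hist1h1b (H1.5) went the other way. Hist1h1b had 0.261 to 1.13 scaled TPM in the IP libraries (median 0.727), against 3.14 to 7.95 in the IN libraries (median 4.92). Every IP library lay below every IN library. The IN mean was 7.64 times the IP mean, and the log2 change was -1.86 ± 0.10 (adjusted p 9.4e-08, limma), the most negative of the histone genes. Hist1h1a had 0.928 to 1.82 scaled TPM in IP and 3.18 to 6.64 in IN, again with no overlap. It changed by -1.37 ± 0.10 (log2, adjusted p 4.4e-07, limma). Neither gene shares a 50-base word with another member, so their values do not rest on reads shared among these copies. On the deposited TPM with no scaling, Hist1h1b stood at -2.28 and Hist1h1a at -1.60 relative to the change of the median gene.

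The H4 genes all make the same core histone, and 12 of 13 were higher in IP, where 40.5% of all tested genes were. The log2 changes of these 12 ran from 0.26 to 0.73, and the median of the class was 0.52. All 12 were above the median gene under each scaling tried, though with no scaling that position partly reflects their level. In 9 of the 13 genes the 8 IP libraries did not overlap the 8 IN libraries, a pattern that 22.4% of all tested genes showed in that direction. Hist1h4h, the H4 gene with the highest level, ranged from 30.4 to 39.6 scaled TPM in IP (median 36.2), against 18.3 to 30.3 in IN (median 24.4). Its highest IN library lay just under its lowest IP library, and the log2 change was 0.54 ± 0.06 (adjusted p 6.3e-06, limma). Hist1h4d ranged from 26.4 to 33.5 scaled TPM in IP and from 13.0 to 22.4 in IN. Its log2 change was 0.73 ± 0.07 (adjusted p 2.8e-06, limma), and it shares only 10.2% of its words with other members, one of the lowest shares among H4 genes.

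Hist1h4m and Hist1h4n are near-identical, with 89.8% of the words of Hist1h4m found in Hist1h4n. Hist1h4m had 17.6 to 24.8 scaled TPM in IP and 8.70 to 15.3 in IN. Hist1h4n had 16.5 to 23.2 scaled TPM in IP and 8.13 to 14.4 in IN. Summed before the fit, they reached 41.2 ± 3.82 scaled TPM in IP libraries and 24.2 ± 3.93 in IN libraries (SD, n = 8 each), a log2 change of 0.75 ± 0.07 (adjusted p 2.1e-06, limma). Of the H4 genes outside the Hist1 cluster, Hist2h4 was higher by 0.26 ± 0.05, and Hist4h4, which alone among H4 genes did not pass, had a log2 change of -0.04 ± 0.07. Hist4h4 was also the H4 gene with the lowest level, at 1.36 ± 0.21 scaled TPM in IP libraries and 1.46 ± 0.51 in IN libraries (SD, n = 8 each). Its annotated transcript runs 2445 bases past the stem-loop.

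**Figure D2:**
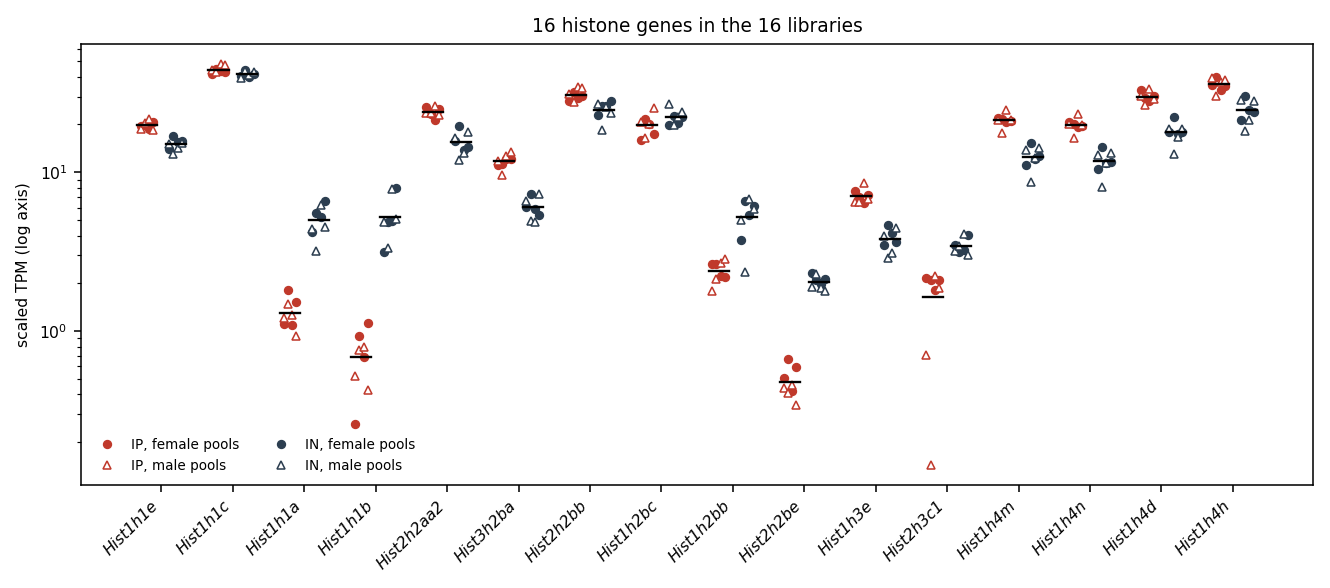
The plot gives scaled TPM on a log axis for the 16 genes with the highest levels or the largest changes, 1 point per library, with circles for female and triangles for male pools, IP in red left of IN in dark blue, and a bar at the mean of 8 libraries. Hist1h1a, Hist1h1b and Hist2h2be sit lower in every IP library than in any IN library, and the 2 lowest IP points of Hist2h3c1 are male pools 1 and 2.

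The H2A genes make the histone that pairs with H2B. Of the 18 tested, 5 were higher and 2 lower in IP, and 11 did not pass, where 40.5% of all genes were higher and 38.9% lower. The higher ones with the larger changes were Hist2h2aa2, Hist2h2ab and Hist1h2al. Hist2h2aa2 ranged from 21.4 to 26.2 scaled TPM in IP (median 23.6) and from 12.0 to 19.6 in IN (median 15.1), with no overlap. It changed by 0.62 ± 0.08 (log2, adjusted p 4.8e-05, limma). Hist2h2ab, which passed the filter only on its IP mean, was higher by 0.71 ± 0.11. Hist1h2al, which lies apart from the rest of the Hist1 cluster at chr13:51202727-51203065, was higher by 0.60 ± 0.07. Hist1h2al shares 67.6% of its words with other members, most of them with Hist2h2aa1. Lower in IP were Hist1h2ab (-0.48 ± 0.10) and Hist1h2af (-0.46 ± 0.06), both of which passed the filter only on their IP mean. Hist1h2ai (0.25) and Hist1h2aj (0.17) were also higher, but both passed the filter only on their IP mean. Both lay below the median gene with no scaling, where the 1 added before the log holds down changes at low TPM. Summed with the near-identical Hist1h2ad, Hist1h2ah and Hist1h2an, they were higher in IP in 5 of the pools. The log2 change of that sum was 0.12 ± 0.10 and did not pass (adjusted p 0.28, limma). Apart from Hist1h2ak and Hist1h2al, the Hist1 H2A genes averaged under 2 scaled TPM in both groups.

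Hist2h2aa1 had irregular values. It was listed at 0 in 14 of 16 libraries, and had 51.9 and 41.9 deposited TPM in the IP libraries of male pools 1 and 2. All words of Hist2h2aa2, on the opposite strand, are found in Hist2h2aa1, and Hist2h2aa2 had 58.3 and 47.0 deposited TPM in those same libraries, within its range of 38.2 to 64.1 in the other IP libraries. The neighbouring Hist2h3c1 had 1.76 and 0.286 deposited TPM there, below its 3.47 to 5.36 in the other IP libraries, and Gm20634, an entry that overlaps both, had 2.17 and 3.43 there and 0 elsewhere. The fitted log2 change of Hist2h2aa1, 1.12 ± 0.61, did not pass (adjusted p 0.12, limma). Summed with Hist2h2aa2, the pair had 21.4 to 44.8 scaled TPM in IP and 12.0 to 19.6 in IN, and the log2 change was 0.84 ± 0.16 (adjusted p 0.00069, limma). The sum differs from Hist2h2aa2 alone (0.62 ± 0.08) only through the IP libraries of male pools 1 and 2.

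**Figure D3:**
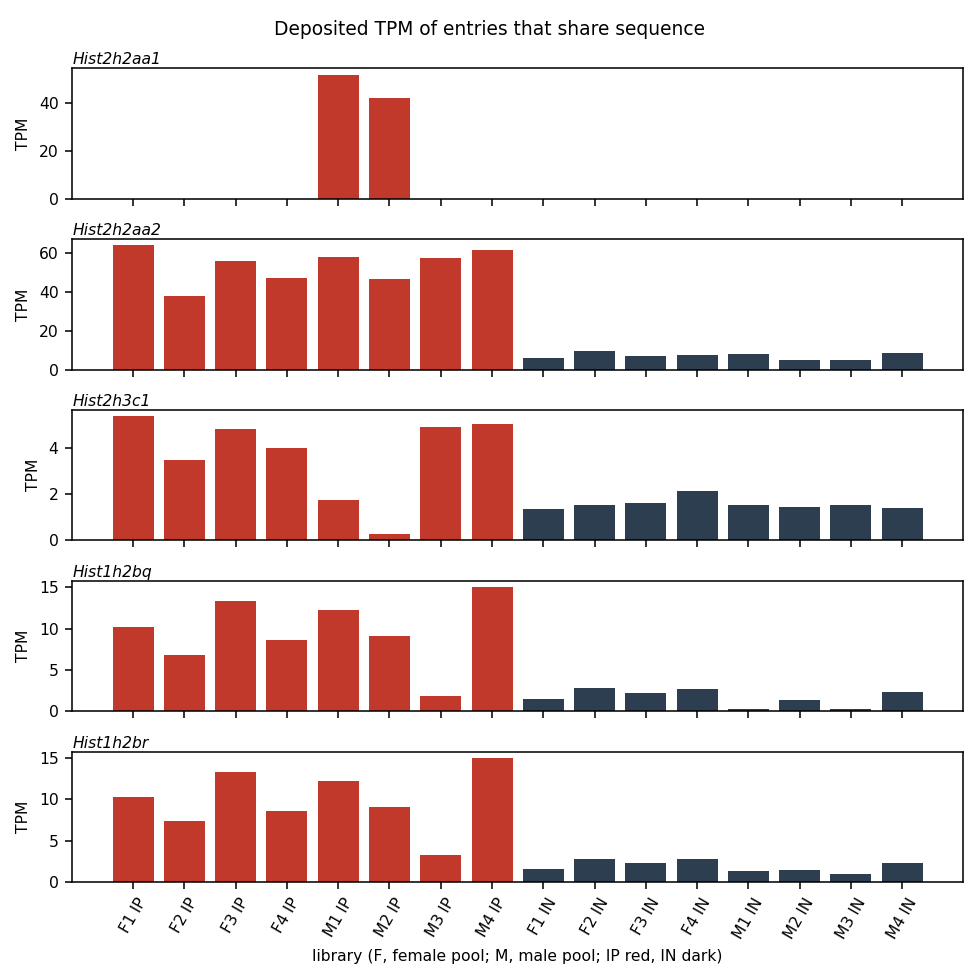
The bars show deposited TPM in each library, IP in red at the left and IN in dark blue at the right, for 5 entries that share sequence or overlap other entries. Hist2h2aa1 is above 0 in only 2 libraries, the IP libraries in which Hist2h3c1 is lowest, and Hist1h2bq is lowest among IP libraries in male pool 3 and among IN libraries in male pools 1 and 3.

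Of 18 tested H2B genes, 5 were higher, 9 lower and 4 neither, where 40.5% of all genes were higher and 38.9% lower. With quantile normalization 4 of the 9 lower genes stayed below 0, and 8 below the median gene. Hist3h2ba ranged from 9.67 to 13.4 scaled TPM in IP (median 11.9), against 4.89 to 7.30 in IN (median 5.96). The groups did not overlap, and the log2 change of 0.87 ± 0.07 (adjusted p 8.3e-07, limma) was the largest called among the histone genes. It shares no word with another member, although 22.1% of its words occur in other annotated genes. Hist2h2bb, the H2B gene with the highest level, ranged from 27.9 to 34.5 scaled TPM in IP and from 18.4 to 28.1 in IN. Those ranges overlapped, and the log2 change was 0.32 ± 0.06 (adjusted p 0.00048, limma). Of its words, 53.6% occur in other annotated genes.

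Hist2h2be encodes H2BE, a variant H2B first known from olfactory sensory neurons of the mouse. It had 0.345 to 0.667 scaled TPM in IP (median 0.447), against 1.78 to 2.32 in IN (median 2.04). No IP library reached an IN library, the IN mean was 4.26 times the IP mean, and the log2 change was -1.04 ± 0.05 (adjusted p 4.6e-08, limma). Its level was low, and it passed the filter only on its IP mean. With 0.1 in place of 1 added before the log, its log2 change was -1.90, and that of Hist1h1a was -1.85. Before scaling, Hist2h2be had 0.810 to 1.27 deposited TPM in IP and 0.699 to 1.14 in IN. With no scaling, its log2 change stood at -1.75 relative to the change of the median gene. Hist1h2bb had 1.80 to 2.85 scaled TPM in IP and 2.37 to 6.76 in IN, where the library of male pool 2 was the lowest and that of female pool 1 next, at 3.77. Its log2 change was -0.84 ± 0.12 (adjusted p 8.1e-05, limma). Hist1h2bc, whose change turned above the median gene with no scaling, had 15.9 to 25.5 scaled TPM in IP and 19.8 to 26.8 in IN. It changed by -0.17 ± 0.06 (log2, adjusted p 0.017, limma), lower in 7 of 8 pools, and the call was lost without the block or without the filter. The other 6 lower H2B genes all lie in Hist1 and fell by 0.16 to 0.58 on the log2 scale, of which Hist1h2be was not below the median gene with quantile normalization. The testis gene Hist1h2ba, listed at 2.68 ± 0.31 scaled TPM in IP libraries and 2.19 ± 0.25 in IN libraries (SD, n = 8 each), shares 38.2% of its words with Hist1h2bq, and the part of that gene's reads in its value was not tested.

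Hist1h2bq and Hist1h2br share 97.3% of the words of Hist1h2bq, and both entries hold several transcripts. Hist1h2bq was at 1.84 deposited TPM in the IP library of male pool 3, against 6.868 to 15.04 in the other IP libraries. It was at 0.341 and 0.278 TPM in the IN libraries of male pools 1 and 3, against 1.41 to 2.77 in the other IN libraries. Neither gene passed in IP against IN. Their sum, with 2.33 to 11.2 scaled TPM in IP and 3.36 to 11.3 in IN, had a log2 change of 0.14 ± 0.16 (adjusted p 0.45, limma).

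The H3 genes differed among themselves, with 2 higher, 4 lower and 6 neither of 12, where 40.5% of all genes were higher and 38.9% lower. Hist1h3e had 6.40 to 8.56 scaled TPM in IP (median 6.87) and 2.89 to 4.67 in IN (median 3.82), with no overlap. Its log2 change was 0.76 ± 0.09 (adjusted p 1.7e-05, limma). Hist1h3f, whose words are shared with Hist1h3e for 41.0%, was higher by 0.36 ± 0.06. Hist2h3c1 had 0.144 to 2.24 scaled TPM in IP and 3.03 to 4.08 in IN, a log2 change of -0.82 ± 0.16 (adjusted p 0.00083, limma). In female pools alone, where Hist2h2aa1 was at 0, the change was -0.55 ± 0.08, and in male pools, with the irregular libraries, -1.10 ± 0.24. Also lower were Hist1h3c (-0.52), Hist1h3a (-0.27) and Hist2h3c2 (-0.17). With quantile normalization Hist1h3a and Hist2h3c2 were no longer below the median gene, and the call of Hist2h3c1 was lost (-0.42, adjusted p 0.063, limma). The 4 genes that share 1 H3 protein, Hist1h3a, Hist1h3g, Hist1h3h and Hist1h3i, had log2 changes of -0.27, -0.03, 0.04 and -0.07, of which only the change of Hist1h3a passed.

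Summed over its genes, each class gives a level less exposed to how reads were split among its copies, and no test was run on these sums. H4 summed to 206 ± 14.1 scaled TPM in IP libraries and 137 ± 20.3 in IN libraries (SD, n = 8 each), a mean log2 ratio over pools of 0.60 ± 0.21 (SD) that was positive in 8 of 8 pools. H2A summed to 75.9 ± 10.4 in IP and 55.2 ± 7.36 in IN, a ratio of 0.46 ± 0.32, and to 70.6 ± 4.44 in IP with Hist2h2aa1 left out, a ratio of 0.36 ± 0.23, positive in 8 of 8 pools either way. H1, H2B and H3 moved by less than the SD over pools, with sums of 68.2 ± 2.85, 108 ± 9.82 and 36.4 ± 3.82 scaled TPM in IP and 68.5 ± 4.197, 105 ± 12.9 and 36.6 ± 4.39 in IN. For H1 this level sum covers Hist1h1e, higher in IP, and Hist1h1a and Hist1h1b, lower in it. H4 made up 41.6% ± 1.54 of all histone gene TPM in IP and 33.9% ± 1.56 in IN libraries (SD, n = 8 each), and H2B 21.9% ± 1.90 in IP and 26.1% ± 0.825 in IN.

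**Figure D4:**
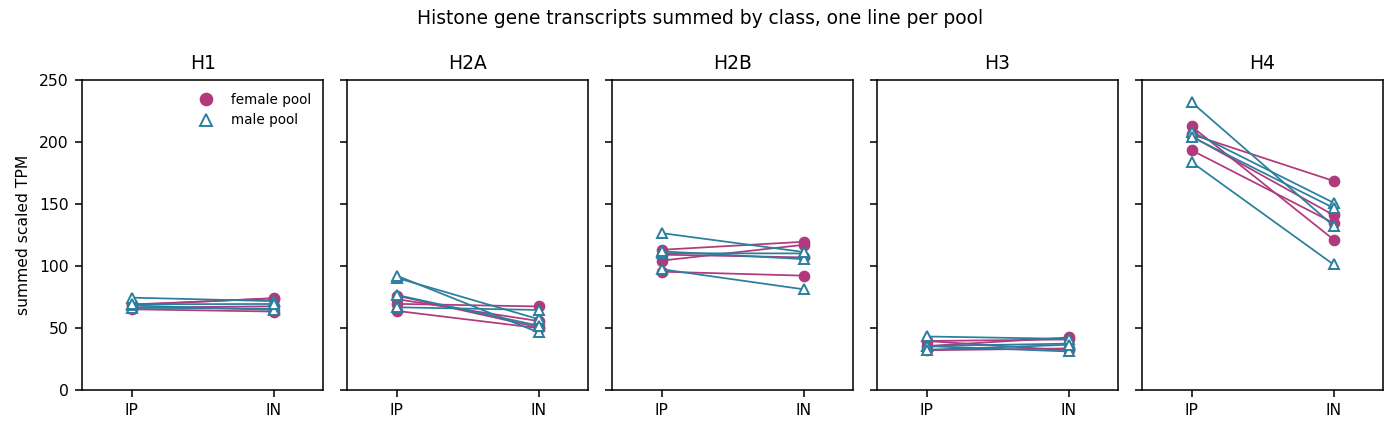
Each line joins the IP and IN library of 1 pool and gives the summed scaled TPM of a histone class, with circles for female and triangles for male pools. The H4 sum is higher in IP in all 8 pools, and the H1 and H3 lines run in both directions.

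The spread between libraries differed by class. The H2A sum had the larger SD in IP, unless Hist2h2aa1 was left out, and the H1, H2B, H3 and H4 sums had the larger SD in IN. The sum of all 69 genes ranged from 464 to 538 scaled TPM in IP and from 324 to 471 in IN. The IN library of female pool 2 was the highest IN library in H2A, H2B, H3 and H4, and that of male pool 2 was the lowest in the same 4 classes. Their H4 sums were 169 scaled TPM in female pool 2 and 101 in male pool 2. The median coefficient of variation over 8 libraries was 13.1% in IP and 16.9% in IN for the tested genes, and for H4 genes it was 8.91% in IP and 15.98% in IN.

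Neighbouring genes did not always share a change. In 13 pairs an H2A and an H2B gene start on opposite strands within 500 bases of each other, so that a single stretch of DNA lies between both starts. In 11 of these pairs both genes were tested, and their log2 changes differed by 0.08 to 1.13. The widest gap was between Hist2h2ac, with 6.23 to 7.69 scaled TPM in IP and 5.06 to 8.67 in IN and a log2 change of 0.08 ± 0.08 that did not pass, and Hist2h2be, with -1.04 ± 0.05. Their starts lie 239 bases apart, and this pair was chosen after its values were seen. Promoters (RefSeq, GRCm38.p6, 250 bases before to 50 after the start) were found for 61 of the 69 genes. Both strands were searched for TATAAA, for CCAAT and for the octamer ATTTGCAT. The window of Hist2h2ac spans the whole stretch between it and Hist2h2be and is shown with that of Hist1h4m, an H4 gene with a large change, with each match, or its reverse complement, in capitals.
Hist2h2ac (chr3:96220831-96221130, -): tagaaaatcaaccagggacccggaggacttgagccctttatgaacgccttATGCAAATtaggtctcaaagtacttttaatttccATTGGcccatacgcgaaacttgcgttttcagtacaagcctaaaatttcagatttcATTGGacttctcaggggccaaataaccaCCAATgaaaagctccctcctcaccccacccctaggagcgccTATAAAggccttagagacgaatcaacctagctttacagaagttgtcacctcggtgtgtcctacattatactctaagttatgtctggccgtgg
Hist1h4m (chr13:21811496-21811795, +): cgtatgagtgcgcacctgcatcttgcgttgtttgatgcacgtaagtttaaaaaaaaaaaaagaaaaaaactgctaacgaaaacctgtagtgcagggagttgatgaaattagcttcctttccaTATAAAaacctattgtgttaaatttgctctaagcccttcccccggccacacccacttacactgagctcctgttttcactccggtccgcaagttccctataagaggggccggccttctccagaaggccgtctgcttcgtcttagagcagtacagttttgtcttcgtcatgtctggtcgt
CCAAT was in all 49 matched windows outside the H4 class (6 of H1, 17 of H2A, 16 of H2B and 10 of H3 genes) and in 3 of 12 H4 windows, against 37.9% of all RefSeq promoters. The octamer, a known binding sequence of Oct factors in H2B promoters, was in 7 of 17 H2A and 6 of 16 H2B windows and in no H1, H3 or H4 window, against 1.8% of all promoters. TATAAA was in 35 of the 61 windows, against 14.2% of all promoters. These are matches of letters in fixed windows, and windows of divergent pairs overlap.

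Entries were also set apart by length. Of 48 tested genes whose entry spans at most 1000 bases, 20 were higher and 12 lower in IP, with a median log2 change of 0.08. Of the 18 longer entries, 7 were higher and 5 lower, with a median of 0.06. Where more than 100 bases of transcript follow the stem-loop, 13 of 21 tested genes were higher and 3 lower (median 0.21). Where at most 100 bases follow it, 7 of 23 were higher and 7 lower (median 0.08), and among genes with no stem-loop in the annotated transcript 7 of 22 were higher and 7 lower (median -0.03). H4 genes made up 6 of the 13 higher genes in the first of these groups, 5 of the 7 in the second and 1 of the 7 in the third. Without H4 genes, 7 of 14 were higher and 3 lower where more than 100 bases follow, 2 of 18 higher and 7 lower where at most 100 follow, and 6 of 21 higher and 7 lower with no stem-loop. These counts stand beside 40.5% higher and 38.9% lower for all genes, no test was run between the groups, and how much of each transcript was sequenced cannot be read from TPM.

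Other genes of the histone supply were read from lists. The counts from these lists, here and below, stand beside 40.5% higher and 38.9% lower for all tested genes. Of 14 histone variant genes, 11 were tested, 6 of them higher and 2 lower in IP (median log2 change 0.15). H2afy2, which encodes a macroH2A, was higher by 0.46 ± 0.05 (adjusted p 1.3e-05, limma). H1fx had a log2 change of 0.68 ± 0.49, was listed at 0 in some libraries of both groups and did not pass. The genes of the replacement histone H3.3 were lower, H3f3a at 8.65 ± 1.97 scaled TPM in IP and 15.5 ± 0.79 in IN and H3f3b at 35.6 ± 9.49 in IP libraries and 49.1 ± 10.9 in IN libraries (SD, n = 8 each). Their log2 changes were -0.80 ± 0.10 and -0.47 ± 0.12. H1f0, the linker variant known from non-dividing cells and picked here after its value was seen, averaged 23.6 ± 1.23 scaled TPM in IP libraries and 21.1 ± 1.60 scaled TPM in IN libraries, a log2 change of 0.15 ± 0.05 that fell just under the median gene with quantile normalization.

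Of 20 tested genes that process or degrade histone mRNA, 6 were higher and 8 lower in IP (median 0.04). Upf1, a helicase needed for histone mRNA decay, was higher by 0.66 ± 0.06, and Ncbp2, of the nuclear cap-binding complex, by 0.41 ± 0.06. Zcchc11, a uridylyltransferase, was lower (log2 change -1.44 ± 0.15), as was the exonuclease gene Xrn1 (-1.07 ± 0.09). Slbp, looked up for its part in the stem-loop and not by rule, averaged 10.6 ± 2.01 scaled TPM in IP libraries and 10.4 ± 2.25 scaled TPM in IN libraries (SD, n = 8 each), a log2 change of 0.03 ± 0.12 that did not pass. Of 23 tested histone chaperone genes, 7 were higher and 9 lower (median -0.05). Chaf1b, of the chromatin assembly factor, and Nap1l1, a chaperone of H2A and H2B, were each higher by 0.31. However, Nap1l1 fell under the median gene with quantile normalization. Chaf1b fell under it with no scaling, where changes at low TPM are held down. Hjurp, the chaperone of the centromeric H3, was lower (-1.30 ± 0.11), as was Atrx, which helps to place the replacement H3 (-1.02 ± 0.08).

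Genes of S phase and proliferation went in both directions. Of 27 tested, 8 were higher and 10 lower in IP (median -0.08), where 40.5% of all tested genes were higher and 38.9% lower. Fen1, a flap endonuclease of DNA synthesis and repair, was at 6.00 ± 1.04 scaled TPM in IP and 3.83 ± 0.31 in IN, higher by 0.53 ± 0.06. Pole, a DNA polymerase subunit, was higher by 0.34 ± 0.11, but not above the median gene with no scaling, where changes at low TPM are held down. Ezh2, a methyltransferase of histone H3, averaged 0.893 ± 0.784 scaled TPM in IP libraries and 5.76 ± 0.73 scaled TPM in IN libraries (SD, n = 8 each), with a log2 change of -1.92 ± 0.14. Top2a, a topoisomerase of dividing cells, was lower too (-1.54 ± 0.09). The 6 markers of proliferating cells, Mki67, Top2a, Rrm2, Ccnb1, Cdk1 and Ccna2, summed to 0.876 to 2.38 scaled TPM in IP and 5.92 to 12.0 in IN, and all 3 that were tested were lower. Hist1h1a and Hist1h1b were lower in IP alongside them, and the part of dividing cells in the histone values was not tested.

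The title of the study asks about sex, and no histone gene passed in female against male pools. In IP libraries 0 of 66 tested genes passed in limma, 1 had an unadjusted p under 0.05, and 0.0380% of all 15776 genes tested passed. In IN libraries 0 of 46 passed, 2 had an unadjusted p under 0.05, and 0.0824% of 13345 genes passed. In the interaction, which asks whether the change in IP against IN differs between the sexes, 0 of 66 passed, 1 had an unadjusted p under 0.05, and 0.0186% of 16099 genes passed. None of the alternative settings run gave a call in these 3 comparisons either. The differences (female minus male) ranged from -2.78 for Hist2h2aa1 to 0.79 for Hist2h3c1 in IP, the genes with irregular values in the IP libraries of male pools 1 and 2, with a median standard error of 0.12 per gene. In IN they ranged from -0.11 to 0.70, the highest being that of Hist1h2bq (unadjusted p 0.037, adjusted p 0.96, limma), whose male values were low in 2 libraries as described. The other gene under 0.05 in IN, Hist1h2br, differed by 0.33 (unadjusted p 0.038, limma) and was lowest in the same libraries. A p that misses the threshold with 4 pools per sex does not show that levels were equal.

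**Figure D5:**
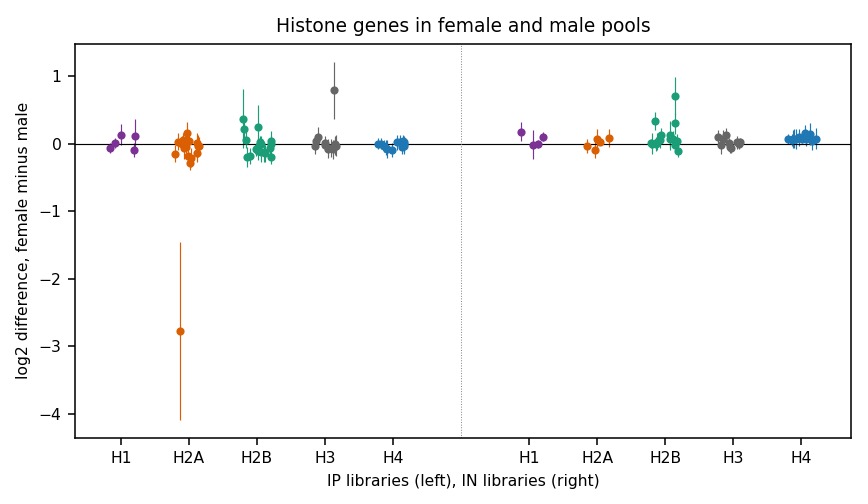
Points are the log2 differences, female minus male, of each tested histone gene with standard errors, by class, in IP libraries at the left and in IN libraries at the right. Nearly all lie close to 0, the lowest point is Hist2h2aa1 in IP, and no gene passed the threshold.

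Class sums by sex were not tested. H4 summed to 204 ± 8.01 scaled TPM in female IP and 207 ± 19.9 in male IP, and to 141 ± 19.9 in female IN and 133 ± 22.6 in male IN (SD, n = 4 each). H1 summed to 67.1 ± 1.81 in female IP and 69.4 ± 3.50 in male IP, and to 69.5 ± 5.25 in female IN and 67.6 ± 3.34 in male IN.

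Within each sex the change in IP against IN had the same sign for 59 of the 64 genes tested in both. Female pools gave 30 calls among 65 tested histone genes, where 66.3% of all genes passed, and male pools gave 35 of 65, where 70.2% passed. Hist1h1b was at -1.80 ± 0.10 in female pools and -1.92 ± 0.17 in male pools, and Hist1h4d at 0.65 ± 0.09 in female pools and 0.80 ± 0.09 in male pools (log2 change ± SE). Among H4 genes 10 of 13 passed in female pools and 12 of 13 in male pools, and the 13 had the same sign in both. Over all pools, 15 of the 66 tested histone genes were higher in IP with no overlap of the 8 libraries, near the share of 22.4% for all tested genes. Another 6 of the 66 were lower with no overlap, where all tested genes had a share of 26.0%.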

How the data were processed

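Whole dorsal root ganglion RNA (IN) and anti-GFP ribosome pulldown RNA (IP) were sequenced from the same 8 pools, after ribosomal RNA depletion per the labels' protocols. The submitters' processing notes name FastQC, STAR 2.2.1, StringTie 1.3.5 and GRCm38.p5. Which annotation release and which strand setting they used is not stated in the labels or files. The authors deposited TPM per gene, per the files' values, which sum to 1000000 per library, 92 spike-in entries aside. Without strand, reads of overlapping or antisense genes cannot be told apart.

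The TPM were scaled by median ratios and fitted as log2(scaled TPM + 1) with limma 3.58.1 in R 4.3.3 (intensity trend, Benjamini-Hochberg over all tested genes, two-sided, threshold 0.05), for genes with a mean of at least 1 TPM in a group. This scale understates changes of low genes. Code was tested on simulated data. IP and IN libraries of a number come from 1 pool by the study's design, so pool was a block. Deviations of the 2 libraries of a pool correlated at 0.0066 to 0.41. For female pool 1 and male pool 1, the IN library correlated more with another pool's IP library of that sex (0.019 and 0.20). No libraries were identical. Words, stem-loops and proteins came from GENCODE M21 transcripts, and promoters from RefSeq. Tables were handled with pandas 2.3.3 in Python 3.11.15.

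Named genes were the 8 with the highest mean, the 5 called with the largest positive and the 5 with the most negative change, and any called between sexes. Other genes given by name were chosen after their values were seen. The members and lists were chosen with earlier results of these data known. Pools hold separate animals, and the mice within a pool were not measured singly. Alternatives were no scaling, quantile normalization, a pseudocount of 0.1, no filter, a filter at 5 TPM, no trend, the block removed or added, each pool or library left out, an entry span limit of 600 bases, and, added after seeing the data, near-identical genes summed.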

Additional observations from a re-analysis of the deposited data

Results flagged for a closer look

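In groups of 4 libraries, 4 of 88 tested groups had 1 library far from the other 3, where chance gives about 1 in 20. Hist1h4d was at 22.35 scaled TPM in the IN library of female pool 2, against 17.3 to 18.0 in the other female IN libraries. Hist1h3e was at 8.561 scaled TPM in the IP library of male pool 3, against 6.53 to 6.76 in the other male IP libraries. Hist2h3c1 was at 1.821 scaled TPM in the IP library of female pool 3, against 2.10 to 2.15 in the other female IP libraries. All 69 genes summed to 464.2 scaled TPM in that same library, against 488 to 493 in the other female IP libraries.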

How the results depend on the processing

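Depth is unknown and limits what can be said of the genes at low TPM. With no scaling, where the median gene is higher in IP by 1.84, 64 of the 66 genes were higher and 1 lower, where 15558 of 16099 genes were called. Female pools gave 63 calls of 65 (14992 of 16115 genes) and male pools 64 of 65 (15427 of 16061 genes). Hist1h2bc (2.004), Hist1h1a (0.24), Hist2h2be (0.086), Hist1h2bb (0.92) and Hist2h3c1 (0.72) then had positive log2 changes. Class sums of deposited TPM had log2 ratios of 2.28 (H1), 2.75 (H2A), 2.34 (H2B), 2.28 (H3) and 2.89 (H4). These ratios have no 1 added before the log, so they cannot be set against the 1.84. After scaling they were -0.0055 (H1), 0.46 (H2A), 0.046 (H2B), -0.0069 (H3) and 0.60 (H4). Quantile normalization (median gene at 0.15) gave 49 higher and 6 lower of 66, where 12979 of 16099 genes were called, with Hist1h1c at -0.16. Among all called genes, 51.0% were higher as reported, 94.0% with no scaling, 61.1% with quantile normalization and 39.7% without a filter. A filter at 5 TPM, which tests fewer genes, gave 29 calls of 41, 8 of them lower, where 9367 of 11912 genes were called. Hist1h1c was then at -0.027, and female pools gave 18 calls of 40, where 7630 of 11868 genes were called. Other causes were not tested.

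Without the replicate block, 41 of 66 histone genes were called over all pools, where 12472 of 16099 genes were. Female pools gave 31 of 65 (10546 of 16115 genes) and male pools 33 of 65 (10764 of 16061 genes). Hist1h2bc then lost its call (adjusted p 0.072, limma). It also lost it without a filter (-0.0083). With the replicate number as a block, female against male stayed at 0 calls in IN and IP, as did the interaction without it. Leaving out 1 pool gave 38 to 43 calls of 66 over all pools, with 12 H4 genes higher each time, where 12404 to 12793 of all genes were called. Female pools then gave 21 to 31 calls, where 8581 to 10875 of all genes were called, and male pools 29 to 35, where 9937 to 10564 were. Leaving out female pool 3 or 4, female calls were 21 and 22 of 65, where 8581 of 16036 and 8960 of 16168 genes were called. Female against male and the interaction gave 0 calls in limma under each alternative, with 0 to 4 genes at an unadjusted p under 0.05. Summing near-identical genes, chosen after seeing the data, left fewer histone entries to test and gave 41 calls, 24 higher and 17 lower. A span limit of 600 bases gave medians of 0.078 and 0.086.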
